A study of Mus musculus with 6 samples.

Results

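Neuropeptides are small signalling proteins that neurons cut out of larger precursor proteins, pack into dense-core vesicles together with granins, and release beside a fast transmitter. They act on G protein-coupled receptors. In the neocortex, Sst, Vip, Npy, Cort and Crh are best known from subsets of GABA interneurons, Cck from interneurons and pyramidal cells, and Adcyap1 from pyramidal cells, while Penk, Pdyn and Tac1 are opioid and tachykinin precursors that are far more abundant in the adjoining striatum.

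The 10 genes described here are the rows named Sst, Vip, Npy, Cck, Penk, Pdyn, Tac1, Crh, Cort and Adcyap1, out of 21667 named genes. They were chosen by function, with earlier results of these data known. They were measured in RNA of the somatosensory cortex of 6 adult male mice, whose strain was mixed SVeV-129; C57BL/6J: 3 controls (Mef2c fl/fl) and 3 Mef2c cKO mice (Mef2c fl/fl; Emx1-Cre). All 6 mice carry the same floxed alleles of Mef2c, which encodes an activity-regulated transcription factor, and the controls are littermates without Cre. Cre sits in the Emx1 gene and acts in most excitatory neurons of the cortex and hippocampus and in some glia from early embryonic life, so interneurons are not its target and the adult tissue has developed without MEF2C in those cells. Replicate 1 of each genotype was 14 weeks old and replicates 2 and 3 were 12 weeks old. The comparison asks how the transcripts of these peptides differ in the mutant cortex.

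Libraries held 19326365 to 54128334 counted reads, with the smallest in Mef2c cKO replicate 2. Whole read counts were recovered from the deposited values and divided by each library's total to give CPM, the reads on a gene per 1000000 counted reads, which were compared with limma on log2(CPM + 0.1). A gene passed when its Benjamini-Hochberg adjusted p was under 0.05 and its absolute log2 fold change above 0.3, which 13.7% of the 14625 tested genes did. Log2 values correlated at 0.992 to 0.995 across genes between mice of one genotype and at 0.978 to 0.981 between genotypes. Emx1, the gene that carries Cre, was at 16.5, 20.3 and 18.8 CPM in the controls and at 5.71, 4.97 and 5.10 CPM in the mutants, which is a log2 fold change of -1.79 ± 0.11 (SE, adjusted p = 1.2e-05, limma). Mef2c itself was at 800.3, 771.8 and 800.2 CPM in the controls and at 1231, 1276 and 1468 CPM in the Mef2c cKO mice. These counts cover the whole gene, outside the deleted part as well, and so check nothing about the deletion.

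For 8 of the 10 genes, the RefSeq promoter table (GRCm38.p6) holds a start site, with 2 start sites each for Pdyn and Adcyap1. Penk and Crh have no entry. The 250 bases before each start were searched on both strands for the cAMP response element TGACGTCA, its core TGACG, the AP-1 letters TGANTCA, the TATA box TATAAA and the MEF2 site by its consensus. Any match to the full element also contains the core. The promoters of Cck, Sst and Npy, which were higher in the mutant, and of Adcyap1, which was lower, are shown because they carry the most widely shared letters found, the core, or lack them. Each matches NCBIM37, the build of the files, at 1 place. Capitals mark any of the searched letters.
Cck, chr9:121404813-121405062, minus strand: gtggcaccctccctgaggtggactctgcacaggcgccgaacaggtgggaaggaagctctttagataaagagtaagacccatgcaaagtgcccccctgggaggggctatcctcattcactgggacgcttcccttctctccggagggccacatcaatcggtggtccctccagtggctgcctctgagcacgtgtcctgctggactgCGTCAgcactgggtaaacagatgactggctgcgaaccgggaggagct
Sst, chr16:23890931-23891180, minus strand: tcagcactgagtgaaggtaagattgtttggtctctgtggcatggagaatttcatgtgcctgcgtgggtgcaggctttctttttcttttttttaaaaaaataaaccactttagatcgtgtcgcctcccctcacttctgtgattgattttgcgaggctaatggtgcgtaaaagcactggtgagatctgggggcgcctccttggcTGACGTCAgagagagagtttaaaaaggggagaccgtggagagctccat
Npy, chr6:49772459-49772708, plus strand: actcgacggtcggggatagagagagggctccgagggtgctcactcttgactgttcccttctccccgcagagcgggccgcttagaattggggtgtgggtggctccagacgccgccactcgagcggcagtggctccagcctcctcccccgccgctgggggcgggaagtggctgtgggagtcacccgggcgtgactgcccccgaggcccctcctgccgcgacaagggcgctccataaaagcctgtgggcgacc
Adcyap1, chr17:93598258-93598507, plus strand: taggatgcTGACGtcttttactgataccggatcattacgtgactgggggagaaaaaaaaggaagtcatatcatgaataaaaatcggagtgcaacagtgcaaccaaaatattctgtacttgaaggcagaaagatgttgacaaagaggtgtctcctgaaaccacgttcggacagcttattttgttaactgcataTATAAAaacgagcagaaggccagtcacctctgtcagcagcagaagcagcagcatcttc

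The full cAMP response element stood in 1 of the 10 member promoters, that of Sst, 48 to 41 bases before the start, and in 1.55% of all 32851 promoters of the table. The core stood in 7 of 10 member promoters (Sst, Cck, Vip, Tac1, Cort and both of Adcyap1, which overlap and share 1 copy), beside 17.8% of all promoters. It was found among genes that were higher (Cck, Sst), lower (Adcyap1) and not past the test (Vip, Tac1, Cort) in the mutant. Neither the AP-1 letters nor the MEF2 site stood in any of the 10, beside 6.75% and 2.92% of all promoters. A TATA box stood in 2 of 10, those of Vip and Adcyap1, beside 12.4% of all.

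Per kilobase of exon, the 10 genes differed widely in the control cortex. Cck was highest at 297 ± 21.2 CPM per kb (SD, n = 3), followed by Sst at 201 ± 14.98, Npy at 63.8 ± 5.26, Penk at 25.3 ± 4.96, Vip at 20.03 ± 1.65, Tac1 at 10.5 ± 1.52, Adcyap1 at 3.62 ± 0.579, Pdyn at 3.13 ± 0.194, Crh at 2.14 ± 0.249 and Cort at 1.302 ± 0.0807 CPM per kb. Penk and Vip overlapped between control mice, as did Adcyap1 and Pdyn, and every other pair of neighbours in this order was separate in the 3 controls. By the means, the first 6 places were the same in the mutant, where Adcyap1 went from the seventh to the last place, at 1.47 ± 0.386 CPM per kb. Adcyap1, Cort and Pdyn overlapped between mutant mice, with Cort at 1.56 ± 0.897 and Pdyn at 1.58 ± 0.538 CPM per kb. The order of these last places was therefore not resolved.

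**Figure D1:**
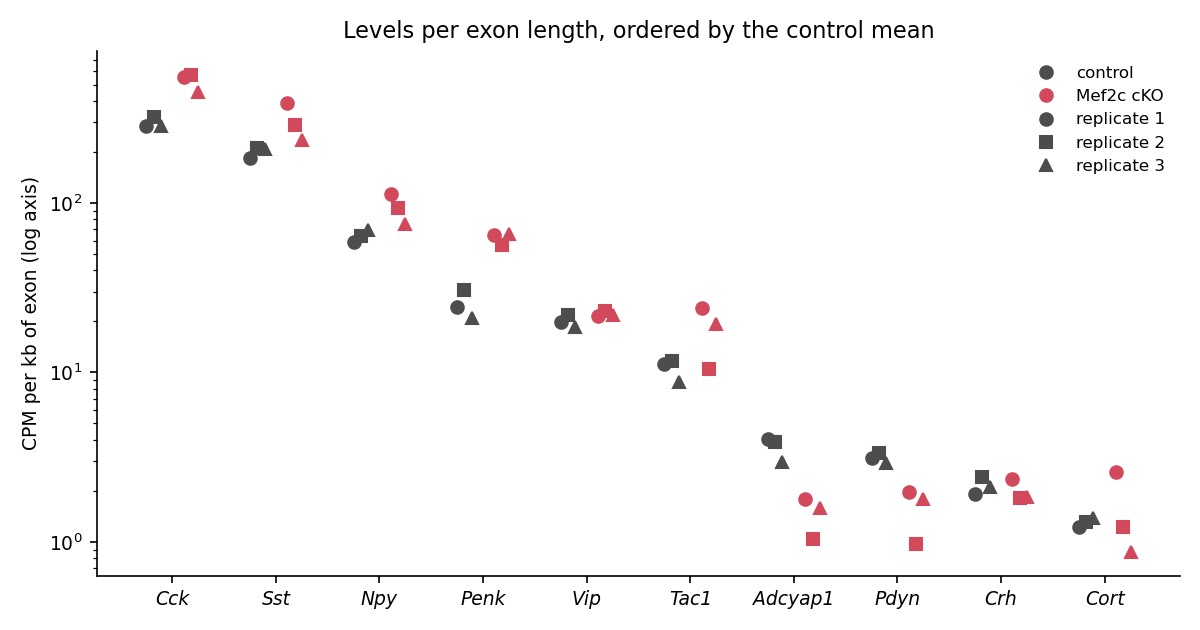
Level of each neuropeptide gene in CPM per kilobase of exon on a log axis, with 1 point per mouse (grey control, red Mef2c cKO, shape by replicate number). Genes are ordered by the control mean, from Cck at 297 to Cort at 1.302 CPM per kb.

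Of the 10 genes, 4 rose (Penk, Cck, Sst and Npy), 2 fell (Adcyap1 and Pdyn) and 4 did not pass (Tac1, Vip, Crh and Cort). With the deposited RPKM, 0 of the 5 neuropeptide genes above the filter passed in limma, 2 having an unadjusted p under 0.05, and 0.176% of all genes did. Leaving out control replicate 2 left 3 of the 10 past the cut-offs (Penk, Cck and Adcyap1), beside 11.3% of all genes then tested. The median log2 fold change of the 10 was 0.34, beside 0.008 over all tested genes. Across all tested genes, 5.88% rose and 7.77% fell past the cut-offs. The genotypes did not overlap for 6 of the 10, all Mef2c cKO mice above in 4 and below in 2, beside 33.8% of all tested genes (16.3% above and 17.5% below). Summed over the 10 genes, the controls gave 487, 553 and 496 CPM and the Mef2c cKO mice 945, 856 and 739 CPM, and Cck alone made up 49.0% to 56.7% of each sum. In bulk tissue, fewer or more cells of a type and less or more RNA per cell cannot be told apart.

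**Figure D2:**
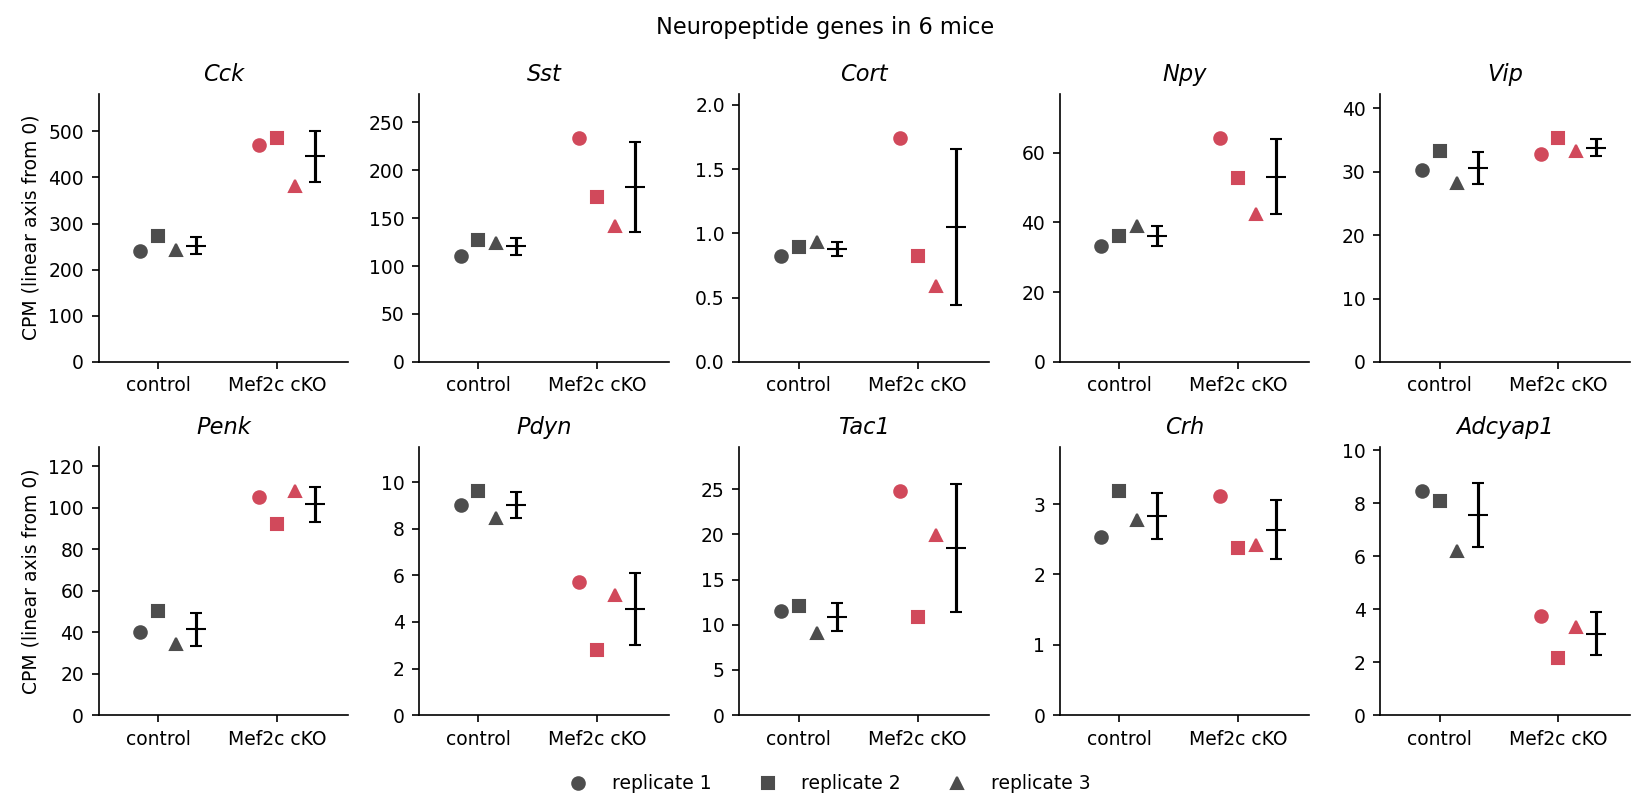
CPM of each neuropeptide gene in the 3 control (grey) and 3 Mef2c cKO mice (red), on linear axes from 0 with a scale per gene. Black bars give the mean and SD of each genotype; Cck, Sst, Npy and Penk lie above every control in all 3 mutants, Pdyn and Adcyap1 below, and the others overlap.

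Cck (chr9:121398943-121404807, minus strand, NCBIM37) encodes cholecystokinin, one of the most abundant peptides of the cortex. It was at 241, 273 and 243 CPM in the controls and at 470.1, 485 and 382 CPM in the Mef2c cKO mice, so that the lowest mutant lay well above the highest control. This was a log2 fold change of 0.82 ± 0.09 (SE), or 1.76-fold (adjusted p = 0.00038, limma). Its main receptor in the brain moved the other way. Cckbr was at 82.5, 83.7 and 72.6 CPM in the controls and at 31.8, 22.9 and 27.5 CPM in the mutants, a log2 fold change of -1.54 ± 0.12 (SE, adjusted p = 2.8e-05, limma), and the second receptor, Cckar, was at or under 0.305 CPM in all 6 mice and was not tested.

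Penk (chr4:4060678-4065966, minus strand) encodes proenkephalin, the precursor of the enkephalins, which act mainly on delta and mu opioid receptors. It was at 39.96, 50.1 and 34.1 CPM in the controls and at 105, 92.0 and 108 CPM in the Mef2c cKO mice. Its log2 fold change of 1.31 ± 0.13 (SE, adjusted p = 0.00015, limma) was the largest rise among the 10, at 2.48-fold, while 1.18% of all tested genes rose past the cut-offs by at least 2-fold. In the gencode annotation 233 of its 1634 exonic bases are also covered by exons of A830012C17Rik, a non-coding gene on the other strand. The libraries were directional but the strand setting of the counting is not given in the sources used here. The delta receptor gene Oprd1 rose with it, from 26.8, 23.8 and 27.4 CPM to 50.1, 44.3 and 43.0 CPM (log2 fold change 0.81 ± 0.09 (SE), adjusted p = 0.00023, limma), whereas the mu receptor gene Oprm1 had a log2 fold change of 0.04 (adjusted p = 0.86, 95% interval -0.24 to 0.32, limma).

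Pdyn (chr2:129512301-129525580, minus strand) encodes prodynorphin, the precursor of the dynorphins, which act on the kappa opioid receptor. It was at 8.997, 9.60 and 8.48 CPM in the controls and at 5.71, 2.79 and 5.17 CPM in the Mef2c cKO mice, all 3 below the controls, with Mef2c cKO replicate 2 the lowest. The log2 fold change was -1.03 ± 0.23 (SE, adjusted p = 0.016, limma), a 2.04-fold lower level, and 2.05% of all tested genes fell past the cut-offs by at least 2-fold. Mef2c cKO replicate 2 held 54 reads of Pdyn. Leaving out each mouse in turn gave log2 fold changes from -1.22 to -0.72, so the 2-fold size did not hold in every fit. Without control replicate 2 the value was -0.99 with an adjusted p of 0.058 (limma). The genes of the opioid precursors Penk and Pdyn moved in opposite directions in the same mice. The kappa receptor gene Oprk1 went from 3.94, 7.33 and 3.26 CPM to 8.61, 10.1 and 10.8 CPM (log2 fold change 1.09 ± 0.26 (SE), adjusted p = 0.019, limma), opposite to its ligand's precursor. That call was lost without control replicate 1 or 3 or Mef2c cKO replicate 2 or 3, with adjusted p-values of 0.068, 0.057, 0.055 and 0.060 (limma).

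Tac1 (chr6:7505071-7512973, plus strand) encodes the precursor of substance P and neurokinin A. It was at 11.5, 12.0 and 9.08 CPM in the controls and at 24.7, 10.9 and 19.9 CPM in the Mef2c cKO mice. Replicates 1 and 3 of the mutant lay above all controls, whereas replicate 2 lay within them. The log2 fold change of 0.69 ± 0.26 (SE) did not pass (adjusted p = 0.11, limma), and without Mef2c cKO replicate 2 it was 1.03 (adjusted p = 0.0029, limma). The substance P receptor gene Tacr1 had a log2 fold change of 0.65 ± 0.24 (SE, adjusted p = 0.10, limma).

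Penk, Pdyn and Tac1 are also major transcripts of striatal projection neurons, and the striatum adjoins the dissected cortex, so markers of those neurons were read in the same libraries. Summed over 10 tested striatal markers other than these 3 genes, the controls gave 234, 271 and 222 CPM and the Mef2c cKO mice 440.0, 207 and 356 CPM. Of the 10 markers, 8 were lowest in Mef2c cKO replicate 2 and 7 were highest in Mef2c cKO replicate 1. The shares over all tested genes were 17.9% lowest in Mef2c cKO replicate 2 and 21.8% highest in Mef2c cKO replicate 1. Adora2a, the adenosine receptor of enkephalin neurons of the striatum, was at 7.47, 9.56 and 5.14 CPM in the controls and at 20.3, 1.35 and 14.1 CPM in the mutants. In limma and in limma-voom 0 of the 10 fell, also at an unadjusted p under 0.05, and 1 rose. Over all tested genes, 7.77% fell and 5.88% rose in limma. The 1 that rose was the dopamine receptor gene Drd1, from 20.2, 21.4 and 17.7 CPM to 69.5, 49.6 and 77.4 CPM (log2 fold change 1.70 ± 0.15 (SE), adjusted p = 8.6e-05, limma). Penk, Tac1 and Pdyn had their lowest mutant value in the same mouse, Mef2c cKO replicate 2, as these markers. The same held for Adcyap1 and Crh, so that this mouse was the lowest mutant for 5 of the 10 neuropeptide genes. Across all tested genes, that mouse was the lowest mutant for 36.4%. There Penk was at 92.0 CPM, above every control, and Adora2a was below every control. The part of striatal RNA in the values of Penk, Tac1 and Pdyn was not tested. Without that mouse 5 neuropeptide genes passed, with Tac1 gained and Sst and Npy lost, beside 12.7% of the 14724 genes then tested.

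**Figure D3:**
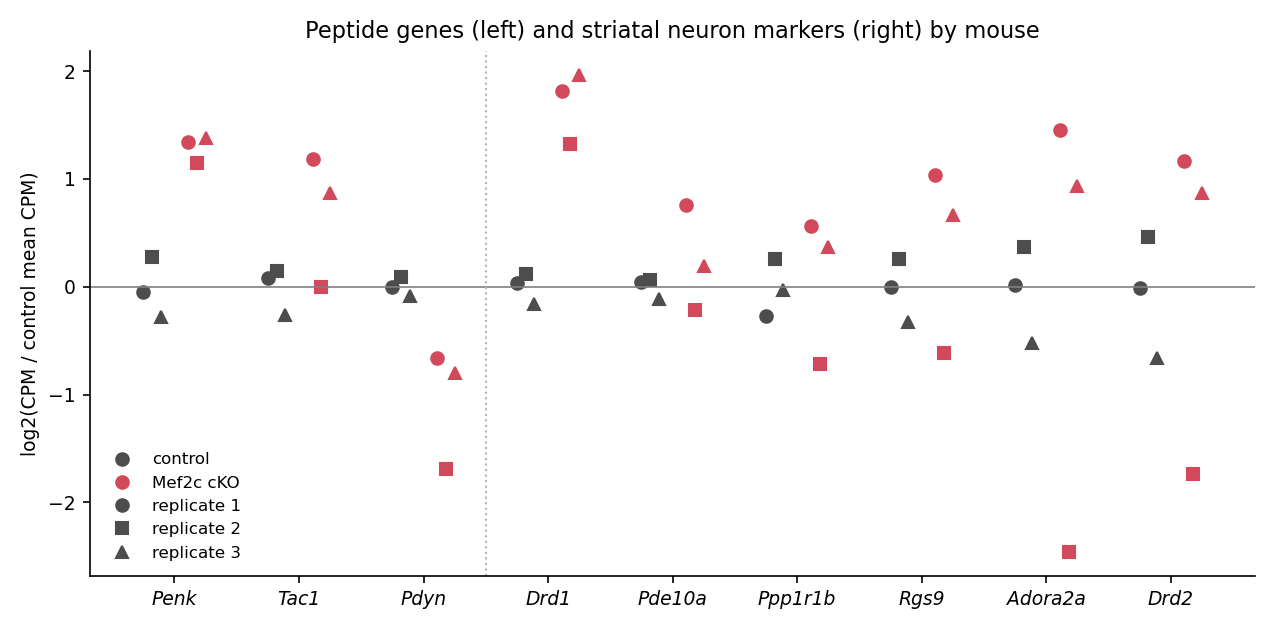
Log2 of CPM over the control mean in each mouse for Penk, Tac1 and Pdyn and for 6 markers of striatal projection neurons (grey control, red Mef2c cKO, shape by replicate number). Mef2c cKO replicate 2 (red squares) is the lowest mutant for every gene plotted, yet remains above all controls for Penk and Drd1.

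Sst (chr16:23889667-23890930, minus strand) encodes somatostatin, the peptide of a class of interneurons that target dendrites. It was at 110.3, 127 and 124 CPM in the controls and at 233, 172 and 141 CPM in the Mef2c cKO mice. All mutants lay above the controls, but they were spread widely, and the highest was replicate 1, the 14-week mouse. Sst rose by a log2 fold change of 0.57 ± 0.15 (SE), or 1.48-fold (adjusted p = 0.034, limma). The call was lost without control replicate 1, 2 or 3 or Mef2c cKO replicate 2, where the log2 fold changes were 0.50, 0.61, 0.59 and 0.59 and the adjusted p-values 0.11, 0.069, 0.074 and 0.069 (limma). Among the 12-week mice only, the log2 fold change was 0.31 (adjusted p = 0.11, limma).

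Npy (chr6:49772709-49779506, plus strand) encodes neuropeptide Y, which part of the somatostatin interneurons and the neurogliaform interneurons contain. It was at 33.1, 36.2 and 39.1 CPM in the controls and at 64.2, 52.9 and 42.4 CPM in the Mef2c cKO mice. The order of the mutants was the same as for Sst, with replicate 1 highest and replicate 3 just above the highest control. Npy rose by a log2 fold change of 0.54 ± 0.14 (SE), or 1.45-fold (adjusted p = 0.025, limma), and in the 12-week mice it was 0.33 (adjusted p = 0.14, limma). The call was lost without control replicate 1 or 2 or Mef2c cKO replicate 1 or 2, at log2 fold changes of 0.48, 0.54, 0.39 and 0.53 and adjusted p-values of 0.085, 0.070, 0.057 and 0.067 (limma).

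Cort (chr4:148499143-148500872, minus strand) encodes cortistatin, a relative of somatostatin. It was the scarcest of the 10, with 16 to 57 reads per library, at 0.823, 0.891 and 0.931 CPM in the controls and at 1.74, 0.828 and 0.591 CPM in the Mef2c cKO mice. The exact Clopper-Pearson 95% interval in Mef2c cKO replicate 1 was 1.32 to 2.26 CPM, above those of the other 5 mice but for replicate 2 of the mutant (0.473 to 1.34), and such intervals cover counting error only. Its log2 fold change was 0.11 (95% interval -0.64 to 0.86, adjusted p = 0.87, limma), and it turned to -0.29 without Mef2c cKO replicate 1 and to -0.34 in the 12-week mice only. The transcripts of Sst and Cort share a run of 21 identical bases, the longest between any of the 10 genes.

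Sst, Npy and Cort all had their highest value of the 6 mice in Mef2c cKO replicate 1, as did Tac1. Across all tested genes that mouse held the highest value for 21.8%. The Sst receptor genes Sstr1 and Sstr3 rose, by log2 fold changes of 0.52 ± 0.07 (SE, adjusted p = 0.0014) and 0.53 ± 0.10 (SE, adjusted p = 0.0076, limma for both), while Sstr2 and Sstr4 did not pass and Sstr5 was too low to be tested. Of the Npy receptor genes, Npy1r, Npy2r and Npy5r had log2 fold changes of -0.19, 0.35 and 0.05 and did not pass (adjusted p = 0.081, 0.29 and 0.91, limma).

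Vip (chr10:4698927-4707323, minus strand) encodes vasoactive intestinal peptide, the mark of interneurons that inhibit other interneurons. It was at 30.2, 33.3 and 28.3 CPM in the controls and at 32.9, 35.3 and 33.2 CPM in the Mef2c cKO mice, and the genotypes overlapped. The log2 fold change was 0.15 ± 0.08 (SE, adjusted p = 0.27, limma), with a 95% interval from -0.03 to 0.33 that leaves out a change of the size seen for Cck or Penk. Its receptor genes Vipr1 and Vipr2 had log2 fold changes of -0.16 and 0.08 and did not pass (adjusted p = 0.19 and 0.87, limma).

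Adcyap1 (chr17:93598762-93604825, plus strand) encodes PACAP, a peptide of the same family as VIP. It was at 8.44, 8.08 and 6.19 CPM in the controls and at 3.73, 2.17 and 3.33 CPM in the Mef2c cKO mice, from 42 to 399 reads per library, and the highest mutant lay below the lowest control. The log2 fold change was -1.29 ± 0.21 (SE, adjusted p = 0.0026, limma), the deepest fall of the 10, at 2.45-fold lower. The gene of its specific receptor, Adcyap1r1, went from 166, 177 and 174 CPM to 219, 200.2 and 230.3 CPM, a log2 fold change of 0.33 ± 0.07 (SE, adjusted p = 0.0078, limma). Without control replicate 1 or Mef2c cKO replicate 3 that log2 fold change was 0.30 and 0.28, no longer above the cut-off of 0.3.

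Crh (chr3:19593401-19595396, minus strand) encodes corticotropin-releasing hormone. It was at 2.53, 3.18 and 2.77 CPM in the controls and at 3.12, 2.38 and 2.42 CPM in the Mef2c cKO mice, from 46 to 157 reads, and the genotypes overlapped. Its log2 fold change was -0.10 ± 0.17 (SE, 95% interval -0.48 to 0.27, adjusted p = 0.74, limma). Its receptor gene Crhr1 differed clearly, whereas the receptor gene Crhr2 did not pass (log2 fold change 0.02, adjusted p = 0.98, limma). Crhr1 was at 37.6, 40.9 and 38.4 CPM in the controls and at 12.7, 13.5 and 13.3 CPM in the mutants, a log2 fold change of -1.56 ± 0.07 (SE, adjusted p = 2.7e-06, limma), and the gene of the binding protein, Crhbp, had a log2 fold change of 0.31 ± 0.15 (SE, adjusted p = 0.22, limma).

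**Figure D4:**
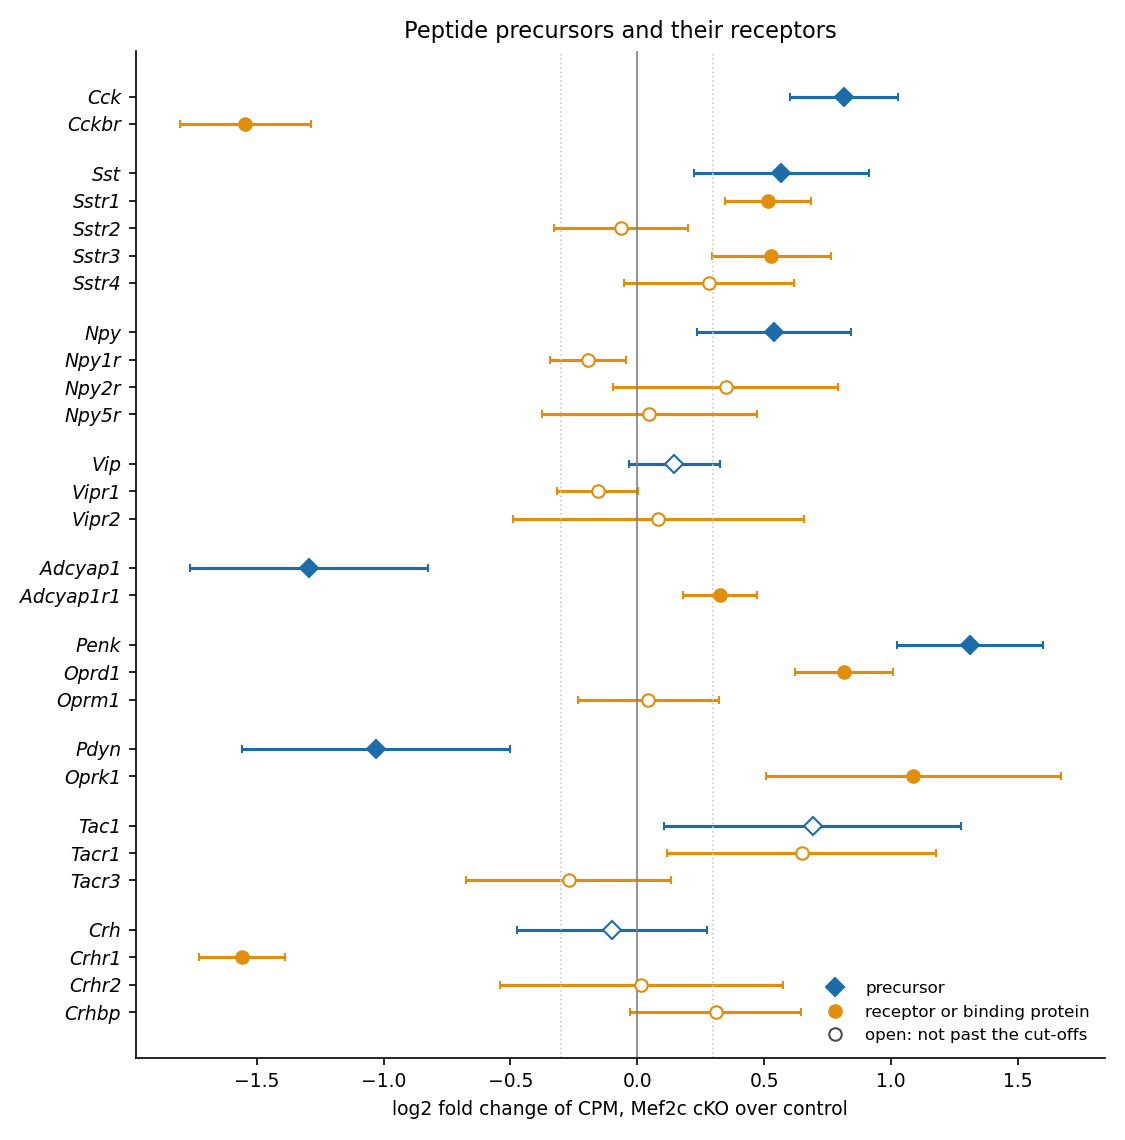
Log2 fold change of CPM, Mef2c cKO over control, with its 95% interval from limma, for each precursor (blue diamonds) above its receptors and binding protein (orange circles). Open symbols did not pass the cut-offs, and dotted lines mark 0.3 either way; Cck rose where Cckbr fell, Pdyn and Adcyap1 fell where Oprk1 and Adcyap1r1 rose, and Penk and Oprd1 both rose.

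Of the 19 receptor and binding protein genes tested, 5 rose (Oprk1, Oprd1, Sstr3, Sstr1 and Adcyap1r1), 2 fell (Crhr1 and Cckbr) and 12 did not pass. Over all tested genes, 5.88% rose and 7.77% fell. The median log2 fold change of the 19 was 0.08. Of the 6 neuropeptide genes that passed, Penk and Sst had a tested receptor gene that moved the same way, Cck, Pdyn and Adcyap1 had one that moved the opposite way, and Npy had none that passed.

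The peptides share a route of cleavage and storage. Of 19 granin and processing genes, all tested, 4 rose, 0 fell and 15 did not pass, while 5.88% rose and 7.77% fell over all tested genes. At an unadjusted p under 0.05 in limma, 3 were lower, and with limma-voom 0 fell past the cut-offs. The median log2 fold change was 0.09. Chgb, a granin of the vesicle core, went from 268, 289.8 and 258 CPM to 477, 408 and 394 CPM (log2 fold change 0.65 ± 0.08 (SE), adjusted p = 0.00060, limma). Cadps2, a priming factor for vesicle release, rose by 0.61 on the log2 scale, and the amidating enzyme Pam and the carboxypeptidase Cpe by 0.38 and 0.37 (adjusted p = 0.0012, 0.0091 and 0.0076, limma). Without Mef2c cKO replicate 3 the value for Pam was 0.29, under the cut-off, and in the 12-week mice only that for Cpe was 0.33 (adjusted p = 0.11, limma). The prohormone convertase genes Pcsk1 and Pcsk2, which make the main cuts, had log2 fold changes of 0.19 and -0.22 (adjusted p = 0.50 and 0.025, limma), and neither passed both cut-offs.

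Among 51 other neuropeptide precursor genes, 14 were high enough to be tested. Of these 3 fell and 2 rose, beside 7.77% and 5.88% of all tested genes, and the median log2 fold change was -0.01. Cartpt, the precursor of the CART peptides, was at 5.73, 9.35 and 5.61 CPM in the controls and at 0.855, 0.517 and 0.591 CPM in the mutants, a log2 fold change of -3.20 ± 0.25 (SE, adjusted p = 3.4e-05, limma). Nts, the neurotensin precursor, went from 0.559, 0.547 and 0.524 CPM to 2.60, 1.501 and 2.14 CPM (log2 fold change 1.73 ± 0.23 (SE), adjusted p = 0.00079, limma). Grp and Apln, the precursors of gastrin-releasing peptide and apelin, fell by 0.87 and 0.41 on the log2 scale (adjusted p = 0.011 and 0.023, limma), and Tac2, the neurokinin B precursor, rose by 0.57 (adjusted p = 0.022, limma). The calls of Apln and Tac2 were each lost on leaving out any of several single mice. For Apln these were control replicates 1 and 2 and Mef2c cKO replicates 1 and 3, and for Tac2 control replicates 1 and 3 and Mef2c cKO replicates 1 and 3, with adjusted p-values from 0.063 to 0.082 (limma).

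Markers of the cells in the tissue were read beside these genes. Over all tested genes, 5.88% rose and 7.77% fell past the cut-offs in limma. Of 20 interneuron markers, 3 fell (Satb1, Pvalb and Maf), 1 rose (Htr3a) and 16 did not pass, with summed levels of 1979 to 2138 CPM in the controls and 1775 to 1901 CPM in the mutants and a median log2 fold change of -0.11. The transporter and enzyme genes found in nearly all of these cells, Slc32a1 and Gad2, had log2 fold changes of 0.04 and 0.16 and did not pass (adjusted p = 0.81 and 0.11, limma). Of 20 pyramidal neuron markers, 8 fell and 4 rose, with sums of 6535 to 7706 and 6541 to 7539 CPM. Of 9 oligodendrocyte markers 3 rose in limma and 4 in limma-voom, 8 were higher and 0 lower at an unadjusted p under 0.05, and the median log2 fold change was 0.53. Their sums were 3323 to 5409 CPM in the controls and 5354 to 6873 CPM in the mutants. Of 10 astrocyte markers 2 rose and 1 fell, of 9 thalamic markers 1 rose and 3 fell, and of 10 microglia and 10 endothelial markers 0 passed in limma or limma-voom, with an unadjusted p under 0.05 for 3 and 1 of them, all lower. Of 20 activity-regulated transcription genes, 3 rose (Fosl2, Junb and Nr4a3) and 0 fell in limma, also at an unadjusted p under 0.05 and in limma-voom, where 2 rose. The part of these differences in the peptide values was not tested.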

How the data were processed

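Cortical RNA of 6 mice, 3 of each genotype, was measured. The authors selected polyA RNA, made directional libraries, aligned reads to mm9 with TopHat and Bowtie, counted reads on genes with HTSeq and scaled the counts to RPKM. Tool versions are not given in the sources used here. The deposited RPKM tables, 1 per mouse, hold 21759 rows, of which 92 have no gene name (0.0575% to 0.0853% of reads) and were left out.

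Within each table, RPKM had been computed with a short series of lengths repeated along the gene order, of 65 to 296 lengths, which differs between mice. Deposited RPKM are therefore not comparable between mice or genes. Whole counts were recovered from these steps for 99.98% to 99.99% of values above 0, adding up to 99.99% of each total or more, and all 10 members were placed by their order. The method was chosen after the data were seen. On 6 simulated tables every total and series was found, at least 98.38% of values were given a count and 100% of these were right.

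Genes with CPM above 0.5 in every mouse of a genotype entered limma 3.58.1 (lmFit, eBayes with a variance trend, R 4.3.3) on log2(CPM + 0.1), which understates changes of low genes. Adjustment was by Benjamini-Hochberg over all 14625 genes. In simulated data for control against Mef2c cKO, with 14516 genes fitted, 88.5% of changes of 0.6 (log2) and 98.9% of changes of 1 were called, with 8 false calls. The simulation gave every gene the same dispersion. Among the 10 genes, the SD of the mutants ran from 3.87% of the mean for Vip to 57.6% for Cort. These rates therefore do not carry over to single genes. Groups and replicate numbers came from the labels. The members and lists were chosen with earlier results of these data known. Text names all 10 members, the genes of 3 related lists past the cut-offs (beyond 6, those with the largest change), receptors beside their peptide, and markers. Markers were named by level, apart from Pvalb, Maf, Htr3a, Slc32a1, Gad2, Adora2a, Rgs9, Drd2, Fosl2, Junb, Nr4a3 and the processing genes Pcsk1 and Pcsk2, named after their values were seen. A gene of the striatal list is not reported here and was left out of its counts and sums. Positions and exon lengths are from gencode vM1 on NCBIM37 (mm9). Alternatives covered pseudocounts, filters, scaling, limma-voom, no variance trend, age, a replicate block, the 12-week mice, each mouse left out, counts with a single fitting length and the deposited RPKM. Python 3.11.15, numpy, pandas, scipy and matplotlib were used.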

Additional observations from a re-analysis of the deposited data

How the results depend on the processing

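Of the 174 values of the 10 genes under an alternative, 150 kept their direction and their side of the cut-offs, 2 of Cort, which passed in no setting, turned from 0.11 to -0.34 (12-week mice) and -0.29 (without Mef2c cKO replicate 1), 19 lost the call, 1 gained it and 2 reversed a call; for the other named genes, whose alternatives were added after seeing the data, 296 of 333 did, 31 lost the call and 6 reversed. The 8 reversals of a called value all came with the deposited RPKM, whose lengths differ between mice. There, log2 fold changes were -1.38 for Sst, -0.17 for Npy, -1.24 for Adcyap1r1, -3.02 for Cadps2, -2.83 for Cpe, -0.26 for Drd1, -2.10 for Pam and -2.71 for Sstr1, none with an adjusted p under 0.60 (limma), and calls fell to 14 of 7974 genes (0.176%), 0 of 5 neuropeptide genes tested, 0 of 0 other precursors, 0 of 18 processing genes and 0 of 6 receptors. The calls of Penk, Cck and Adcyap1 held under every other alternative, at log2 fold changes of 1.18 to 1.46, 0.74 to 0.92 and -1.45 to -1.07. Sst and Npy also lost theirs without the variance trend (adjusted p = 0.095 and 0.072, limma), and Npy with single-length counts only (0.053). Leaving out each mouse in turn gave 3 to 6 neuropeptide genes past the cut-offs, 3 without control replicate 2, and 3 to 5 other precursors, 3 without control replicate 1 or Mef2c cKO replicate 1, with 3 to 6 processing genes, 5 to 7 receptors and 1657 to 1869 of all genes. In the 12-week mice alone, 2 other precursors and 4 receptors passed, and calls were lost for Sst, Npy, Apln, Tac2, Grp, Cpe, Oprk1, Sstr3 and Adcyap1r1 (adjusted p from 0.053 to 0.18, limma). Same-numbered mice did not deviate together (r = -0.176, -0.109 and -0.082) and no mouse correlated best with its own number. These are deviations from the mean of 3 mice, so they cannot exclude pairing, and replicate 1 has the same age in both genotypes. With the replicate number as a block, 4 neuropeptide genes passed, Sst and Npy having adjusted p-values of 0.059 and 0.058 (limma), with 3 other precursors, 3 processing genes and 1695 of all genes, and Apln, Tac2 and Cpe were lost at 0.054, 0.057 and 0.053. With 3 mice a genotype, and 16 to 57 reads for Cort, small changes of the scarce genes were not detectable at this depth.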
